A study of Homo sapiens with 4 samples.

Results

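The interleukin-1 (IL-1) family was described here through 10 named genes, namely the ligands IL37, IL1A, IL1B and IL33, the receptor antagonist IL1RN, the receptor chains IL1R1 and IL1RAP, the signalling genes IRAK1 and MYD88, and the protease gene CASP1. The members were picked by gene symbol with their measured levels already known, so their levels and ratios are a description and were not tested. Of the 10 genes, 8 had a value among the 12033 genes of the expression table, and IL1RN and IL33 were not analysed here. A mean of at least 2 RPKM (read counts scaled to transcript length and library size) over the 4 libraries, set for comparing levels, was reached by 6 members and by 7589 genes in all. The other 2 members, IL1A and IL1RAP, were listed at 1 RPKM, the lowest value the table holds, in every library, as were 2421 genes in all.

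The cells were BJ fibroblasts, human skin fibroblasts immortalized with telomerase, carrying a RASG12V that is switched on by 4-hydroxytamoxifen (4-OHT). Sustained RAS signalling drives such cells out of the cell cycle into oncogene-induced senescence, and RNA was taken 14 days after RAS induction in all 4 conditions, while uninduced cells were not analysed here. Each condition was a culture transduced with 1 CRISPR-Cas9 guide: a non-targeting control (sgRNA-NT), either of 2 guides aimed at the AP-1 site of the enhancer Enh.AP1.OIS1 (sgRNA.69 and sgRNA.71, separate guides with the same target), or a guide against FOXF1, the gene assigned to that enhancer (sgRNA-FOXF1). Every condition was represented by 1 library, so no value has a replicate error and the spread between the 2 enhancer guides (n = 2) is the only repeat of an intended target. The paper reported that both enhancer guides and the FOXF1 guide let cells bypass this senescence and keep dividing. Ratios to sgRNA-NT may thus also carry a difference in proliferation, and its part was not tested.

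IL-1 alpha and IL-1 beta are inflammatory cytokines that bind the receptor IL1R1, which then recruits its accessory chain IL1RAP. The assembled receptor passes the signal through the adaptor MYD88 and the kinase IRAK1 to NF-kB and to inflammatory target genes. IL-1 beta is made as a precursor that caspase-1 cleaves inside inflammasomes, IL-37 is a family member known for damping inflammation, and IL-1 signalling is part of the secretory program of senescent fibroblasts.

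The sequences below show the letters that the enhancer guides were aimed at and where the same letters lie near the start sites of members. The AP-1 motif was searched as TGANTCA on both strands, and capitals mark the match. The element's single match lies at chr16:86421275-86421281 (GRCh37, the build called hg19 in the processing notes), shown on the plus strand with its flanks (chr16:86421255-86421301). Among the 8 members, 2 had a match within 250 bases before and 50 bases after the annotated start site. Of 11978 promoters of the same length, 3.84% had one. The 2 members were IL1A with 2 matches (chr2:113542065-113542093 and chr2:113542015-113542043, minus strand) and IRAK1 with a match across its start (chrX:153285337-153285365, minus strand). This share of 8 picked genes was not tested. IL1A was at 1 RPKM in every library, and IRAK1 stayed within 1.5-fold of sgRNA-NT under every guide.
Enh.AP1.OIS1: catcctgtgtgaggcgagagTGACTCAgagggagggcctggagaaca
IL1A, first match at bases -12 to -6 from the start: gcgaagaagacTGACTCAggcttaagctg
IL1A, second match at bases 39 to 45: tcattggcgttTGAGTCAgcaaaggtatt
IRAK1, match at bases -1 to 6: cgaaggggaagTGAGTCAgtgtccgcgga

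The IL37 and IL1B promoters are shown because these genes gave the largest ratios among the members. Each is the stretch of 250 bases before the annotated start on the gene's own strand (GRCh37), with the last 50 bases before the start in capitals. The windows of IL37 and IL1B, including the first 50 transcribed bases, held no AP-1 match, no forkhead match (TGTTTAC, in 2.01% of promoters) and no NF-kB match (GGG and TTTCC with any 2 bases between them, in 2.09%), both strands searched, which says only that those letters are not in these windows. GC content over the 300 bases was 43.0% for IL37 and 42.3% for IL1B.
IL37, chr2:113668492-113668741, plus strand: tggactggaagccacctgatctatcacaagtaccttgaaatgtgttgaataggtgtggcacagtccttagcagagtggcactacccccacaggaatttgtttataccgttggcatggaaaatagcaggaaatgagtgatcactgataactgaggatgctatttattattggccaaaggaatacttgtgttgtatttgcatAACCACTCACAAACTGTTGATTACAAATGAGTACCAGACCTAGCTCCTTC
IL1B, chr2:113594357-113594606, minus strand: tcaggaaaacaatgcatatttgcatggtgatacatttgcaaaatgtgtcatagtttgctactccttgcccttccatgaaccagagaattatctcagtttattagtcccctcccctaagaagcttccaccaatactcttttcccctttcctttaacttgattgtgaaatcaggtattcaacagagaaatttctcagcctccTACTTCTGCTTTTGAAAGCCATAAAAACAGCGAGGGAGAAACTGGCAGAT

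FOXF1 itself stood at 29.6 RPKM with sgRNA-NT, 11.1 with sgRNA.69, 7.8 with sgRNA.71 and 25 with sgRNA-FOXF1. Its log2 ratio to sgRNA-NT was -1.42 and -1.92 with the enhancer guides and -0.24 with sgRNA-FOXF1. A cut in the coding sequence need not lower mRNA, so the last value does not check the gene knockout. The paper reported the knockout as effective at the protein level, by western blot. Of 10 fibroblast markers, 9 were above the lowest listed value in at least 1 library. The 10 summed to 2396.4 RPKM with sgRNA-NT and 3078.2 to 3138.2 RPKM in the targeted libraries. The sum was carried mainly by VIM (1775.3 RPKM in the control and 2382.4 to 2644.9 in the others). Quantile normalization gives each rank within a library a set value. VIM was the 19th highest gene in the control and the 13th, 13th and 15th with sgRNA.69, sgRNA.71 and sgRNA-FOXF1. Mitochondrial mRNAs such as MT-ND5 (15th in the control, then 58th, 128th and 38th) fell below it. The higher sum is thus no separate measure of fibroblast marker level. The markers went both ways. COL1A1, COL1A2 and PDGFRA were past 1.5-fold below the control under both enhancer guides (COL1A1 at 120.6 RPKM in the control, 53.7 with sgRNA.69 and 42.5 with sgRNA.71). PDGFRA was also lower with sgRNA-FOXF1. LUM was past 1.5-fold above the control under every targeting guide, and DCN under sgRNA.71 and sgRNA-FOXF1. DCN was at the lowest listed value of 1 RPKM in the control, so its ratios have no measured base. Among markers of other cells, the keratinocyte list had 2 of 10 genes in the table (DSP at the lowest value throughout) with sums of 15.2 to 20.7 RPKM, the myeloid list had CD14 alone of 8 at 6.0 to 9.8 RPKM, and none of 4 endothelial markers was among the genes analysed. Of the 13 mitochondrially encoded mRNAs, 8, 10 and 7 were at least 1.5-fold lower than sgRNA-NT with sgRNA.69, sgRNA.71 and sgRNA-FOXF1. The ratios to sgRNA-NT also moved with transcript length across 7559 genes, shorter transcripts having higher ratios, with a Spearman coefficient of -0.50, -0.45 and -0.45 in the same order. The part of either pattern in the members' ratios was not tested beyond the length-corrected values given below.

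IL37, the ligand known for damping inflammation, was higher in every targeted library than in the control. Its level was 1.9 RPKM with sgRNA-NT, 6.0 with sgRNA.69, 8.8 with sgRNA.71 and 4.7 with sgRNA-FOXF1. All 3 targeted libraries thus lay above the control, the enhancer guides above the FOXF1 guide. The differences were 3.16-fold, 4.63-fold and 2.47-fold, or 1.66, 2.21 and 1.31 on the log2 scale, and the mean over the enhancer guides was 1.94 ± 0.39 (SD, n = 2 guides). In a bulk culture, a changed share of cells with a transcript and a changed amount per cell cannot be told apart, for any member. IL37 had the 22nd and 13th highest ratio of 7589 genes with the enhancer guides, and the 107th highest with sgRNA-FOXF1. The 3 ratios share the sgRNA-NT library, in which IL37 was near the lowest listed value, at rank 7588 of 12033 genes by level, against 4559, 3632 and 5192 in the targeted libraries.

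The IL37 transcript is short, at 864 nt in 6 exons against a median of 2902 nt, so few reads stand behind an RPKM value. Its RPKM values correspond to about 1.64, 5.18, 7.6 and 4.06 RPM (RPKM times the length in kb) on the normalized scale, while the sequencing depth is unknown. The transcript lengths used here, also for IL1A below, may differ from those behind the deposited RPKM. With the trend over transcript length taken out, the log2 ratios were 1.35, 1.86 and 1.0, and with 1 RPKM added to every value they were 1.27, 1.76 and 0.97. Each of these is past 1.5-fold (0.58 on the log2 scale). The gene lies at chr2:113668742-113676459 on the plus strand and overlaps no other annotated gene.

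IL1B, the gene of the secreted inflammatory cytokine IL-1 beta, was by far the more abundant ligand. It stood at 114.5 RPKM with sgRNA-NT, 113.2 with sgRNA.69, 311.8 with sgRNA.71 and 73.7 with sgRNA-FOXF1, which placed it between the 118th and the 543rd highest gene of 12033. Control and sgRNA.69 were nearly equal, sgRNA.71 stood alone at the top, and sgRNA-FOXF1 was the lowest. Relative to sgRNA-NT the log2 ratio was -0.02, 1.45 (2.72-fold higher) and -0.64 (1.55-fold lower). The mean over the enhancer guides was 0.71 ± 1.03 (SD, n = 2 guides), a spread larger than the mean. With the length trend taken out the ratio was 1.23 with sgRNA.71 and -0.85 with sgRNA-FOXF1. IL1B lies at chr2:113587328-113594393 on the minus strand, with 7 exons and 1507 nt.

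IL1A, the gene of the cell-associated ligand IL-1 alpha, was listed at 1 RPKM in all 4 libraries, so no ratio can be given. At its transcript length of 2017 nt the lowest listed value corresponds to about 2.02 RPM, and levels below that cannot be ordered. IL1A, IL1B and IL37 lie in a single cluster on chromosome 2. The IL1B start is 74.3 kb and the IL1A start 126.7 kb from the IL37 start. Of 17 annotated genes from IL1A (chr2:113531502-113542070) to IL1RN, these were the 3 with a value, and their patterns differed: IL37 was higher in all targeted libraries, IL1B was higher in 1 of them and IL1A was at the lowest value.

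**Figure D1:**
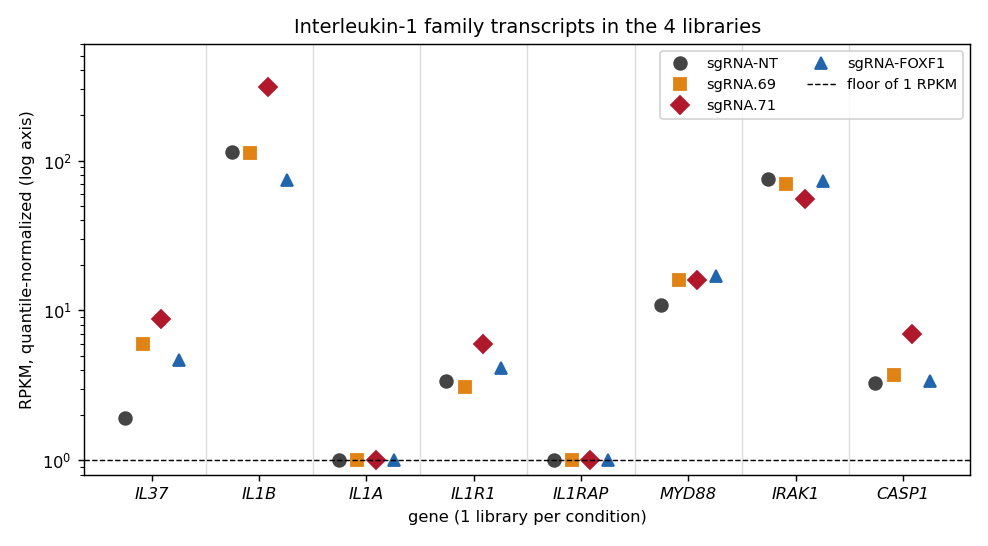
Level of each of the 8 members in each of the 4 libraries, in RPKM on a log axis, with 1 point for each library. IL1B and IRAK1 lie above the other members in every library, IL37 is lowest with sgRNA-NT at 1.9 RPKM, IL1B is highest with sgRNA.71 at 311.8 RPKM, and IL1A and IL1RAP lie at 1 RPKM in every library.

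Among the receptor chains, IL1R1, the signalling receptor for both IL-1 ligands, was expressed at a low level. Its level was 3.4 RPKM in the control, 3.1 with sgRNA.69, 6.0 with sgRNA.71 and 4.1 with sgRNA-FOXF1. The highest library was again sgRNA.71, and the other 3 lay within 1.0 RPKM of each other. The log2 ratio to sgRNA-NT was -0.13, 0.82 and 0.27, with a mean over the enhancer guides of 0.34 ± 0.67 (SD, n = 2 guides). IL1R1 is a long transcript (5183 nt, 12 exons, chr2:102681004-102796334, plus strand), and without the length trend its log2 ratios were 0.12, 1.12 and 0.56. An antisense gene, IL1R1-AS1, overlaps it, and the sources name both a stranded and an unstranded library kit, so reads of the pair may not have been told apart. IL1RAP, the accessory chain needed for signalling, was at 1 RPKM in all 4 libraries.

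Among the signalling genes, MYD88, the adaptor that links the receptor to the IRAK kinases, had 10.8 RPKM with sgRNA-NT, 15.9 with each enhancer guide and 17 with sgRNA-FOXF1. The targeted libraries lay together above the control, at log2 ratios of 0.56, 0.56 and 0.65, and of these only the last is past 1.5-fold. IRAK1, the kinase recruited by MYD88, had 75.4 RPKM with sgRNA-NT, 69.8 with sgRNA.69, 55.8 with sgRNA.71 and 72.8 with sgRNA-FOXF1. Its log2 ratios of -0.11, -0.43 and -0.05 all stayed within 1.5-fold, with sgRNA.71 the lowest library.

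CASP1 encodes caspase-1, which cleaves the IL-1 beta precursor. It stood at 3.3 RPKM with sgRNA-NT, 3.7 with sgRNA.69, 7.0 with sgRNA.71 and 3.4 with sgRNA-FOXF1. The library with the highest IL1B thus also had the highest CASP1, while the other 3 lay close together. The log2 ratio was 0.17, 1.08 (2.12-fold) and 0.04, with a mean over the enhancer guides of 0.62 ± 0.65 (SD, n = 2 guides). CASP1 lies in a cluster of related genes on chromosome 11, where CASP4, an inflammatory caspase that also triggers pyroptosis, read 7.8, 11, 16.2 and 8.1 RPKM in the same order of libraries. CARD16, a near copy of the first part of CASP1, was at 1.0 to 1.1 RPKM, and how reads shared between the copies were counted is unknown.

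Counted at 1.5-fold, 1 of the 6 compared members was higher with sgRNA.69 (IL37) and none was lower, where 8.17% and 9.92% of all compared genes were. With sgRNA.71, 4 of 6 were higher (IL37, IL1B, IL1R1 and CASP1) and none lower, beside 14.0% and 14.7% of all genes. With sgRNA-FOXF1, 2 of 6 were higher (IL37 and MYD88) and 1 was lower (IL1B), beside 11.6% and 13.2%. For the mean of the enhancer guides the count was 3 higher (IL37, IL1B and CASP1), beside 10.1% of all genes, and none lower, beside 11.7%. CASP1, at 0.62, came inside 1.5-fold with a pseudocount (0.51), with centred ratios (0.55) and without the length trend (0.53), as did IL1B without the length trend (0.51). The members' median log2 ratios were 0.07, 0.95 and 0.16 with sgRNA.69, sgRNA.71 and sgRNA-FOXF1, and those of all compared genes 0.07, 0.08 and 0.05. Since the members were chosen on these contrasts and the 3 contrasts share a control, nothing is read from these counts. IL37 was the only member past 1.5-fold higher in all 3 comparisons, as were 4.97% of all genes. No member was past 1.5-fold lower in all 3, as were 5.85% of all genes. IL1B, IL1R1 and CASP1 were past 1.5-fold higher with sgRNA.71 and not with the other guides, a pattern held by 4.99% of all genes. At the threshold, MYD88 at 0.56 with the enhancer guides lay just inside 1.5-fold and at 0.65 with sgRNA-FOXF1 just past it.

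**Figure D2:**
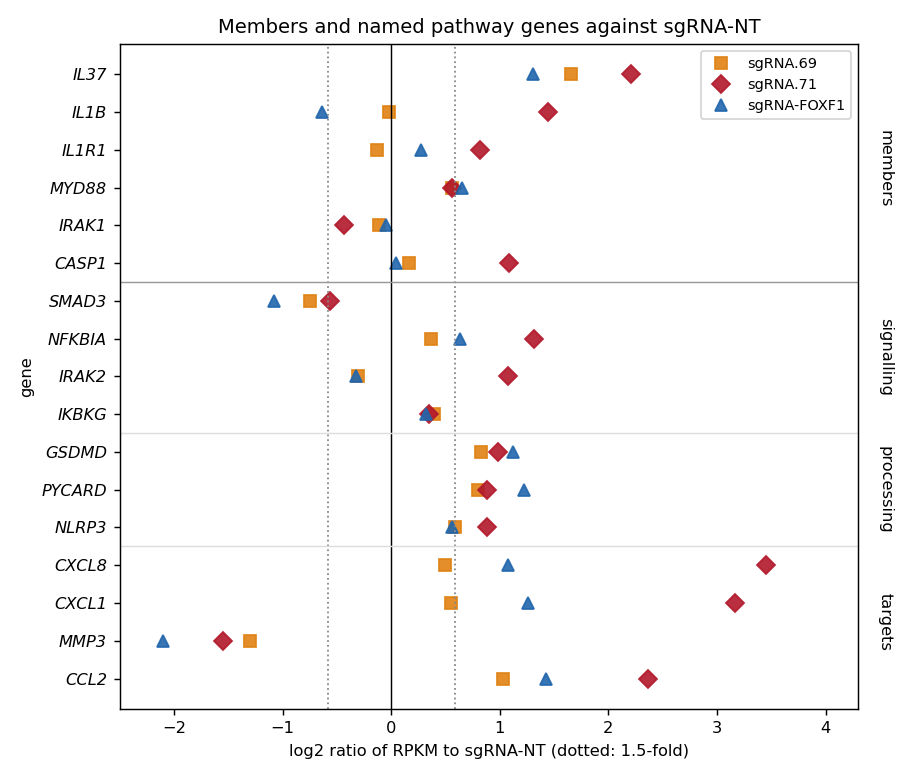
The log2 ratio of each of the 6 compared members to sgRNA-NT in each targeted library, followed by the named pathway genes, with 1 symbol for each library and dotted lines at 1.5-fold. IL37 is past the upper line in all 3 libraries, and IL1B is past the upper line with sgRNA.71 (1.45) and past the lower line with sgRNA-FOXF1 (-0.64).

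The comparison of the enhancer guides with each other does not use sgRNA-NT and asks how far libraries with the same intended target differ. At 1.5-fold, 3 of the 6 members were higher with sgRNA.71 than with sgRNA.69 and none was lower, where 2.41% of all compared genes were higher and 2.85% lower. IL1B was 2.75-fold higher (log2 1.46), the 7th highest ratio of 7589 genes. IL1R1 was 1.94-fold higher (0.95, rank 31) and CASP1 1.89-fold higher (0.92, rank 38). IL37 was higher by 0.55 on the log2 scale, while IRAK1 was lower at -0.32. MYD88 read 15.9 RPKM with both guides, at the same rank of 2354. Levels were assigned by rank in the quantile normalization and given to 1 decimal. Transcript length was only weakly related to this comparison (Spearman coefficient -0.13 over 7559 genes), whereas 7 of the 13 mitochondrial mRNAs were at least 1.5-fold lower with sgRNA.71.

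The pathway genes described further below, a list chosen with earlier results known, were also placed in this comparison. Of the 23 genes at least 2-fold higher with sgRNA.71 than with sgRNA.69 (0.303% of all compared genes), 9 (39.1%) belonged to the members or to the pathway genes listed below, which is 22% of the 41 such genes compared, and the others of the 23 were on neither list, the complement gene C3 (log2 1.53, rank 6) among them. The share is a description and was not tested. The neutrophil-attracting chemokine CXCL8 was at 45.2 RPKM with sgRNA.69 and 350.2 with sgRNA.71 (log2 2.95), and the related CXCL1 at 24.1 and 148.2 (2.62). The myeloid growth factor CSF2 was at 3.1 and 18.4 (2.57), and PTGS2, the inducible enzyme of prostaglandin synthesis, at 5.4 and 17.9 (1.73). The remaining genes of the 9 were IL1B, SOD2, IRAK2, CCL2 and the collagenase gene MMP1. MMP1 had 978 RPKM in the control, 408.1 with sgRNA.69, 1012.7 with sgRNA.71 and 501.8 with sgRNA-FOXF1, so sgRNA.69 lay below the control and sgRNA.71 near it. Of the targets below the filter, 8 in all, LIF and BIRC3 stood at 1 RPKM in every library. CXCL2, CXCL3, CXCL5 and TNFAIP3 read 1.1 to 1.3 with sgRNA.71 and at most 1.1 elsewhere. IL6 and CSF3 were at 1 RPKM in every library but sgRNA.71, where they read 2.2 and 4.4.

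**Figure D3:**
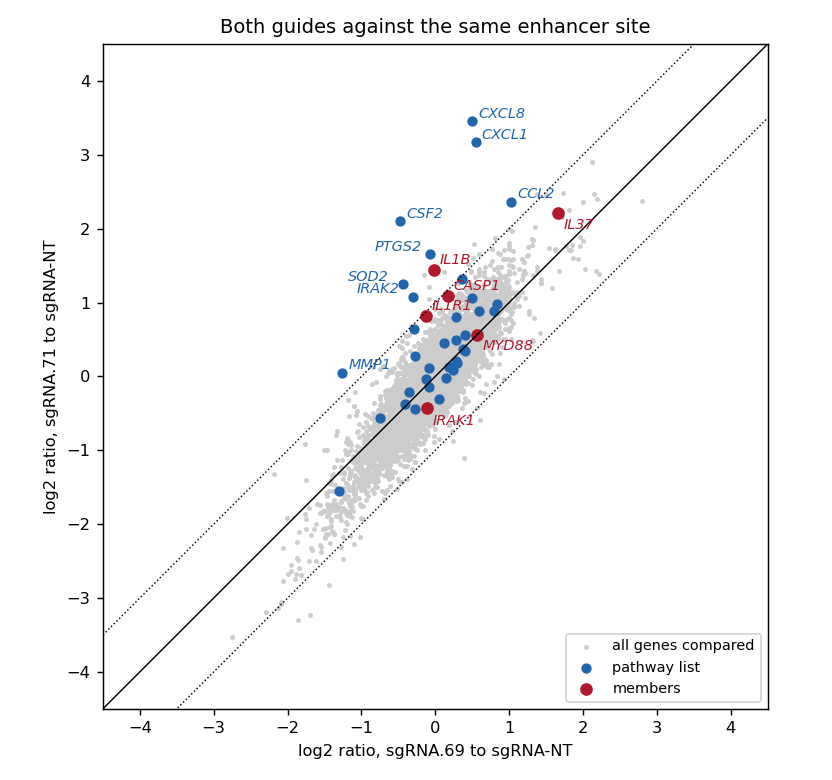
The log2 ratio to sgRNA-NT with sgRNA.69 (x axis) against that with sgRNA.71 (y axis), with all compared genes in grey, pathway genes in blue, members in red, a solid line where both are equal and dotted lines where they differ 2-fold. IL37 lies high on both axes at 1.66 and 2.21, while IL1B lies near 0 with sgRNA.69 (-0.02) and at 1.45 with sgRNA.71.

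The gene guide was next set against the enhancer guides, again without sgRNA-NT. Relative to the mean of the enhancer guides, 2 of the 6 members were at least 1.5-fold lower with sgRNA-FOXF1 and none was higher, where 3.53% of all compared genes were lower and 5.85% higher. IL1B was 2.55-fold lower (log2 -1.35), the 6th lowest ratio of 7589 genes, and this was set mainly by sgRNA.71: the ratio was -2.08 against that guide and -0.62 against sgRNA.69. IL37 was 1.55-fold lower (-0.63), with -0.90 against sgRNA.71 and -0.35 against sgRNA.69. CASP1 lay just inside 1.5-fold at -0.58, IL1R1 at -0.07, and MYD88 and IRAK1 were slightly higher at 0.10 and 0.22. Transcript length had little relation to this comparison (Spearman coefficient -0.02).

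Other genes of the pathway came from a list of 73, of which 54 had a value and 35 passed the filter. At 1.5-fold, 4 were higher and 3 lower with sgRNA.69, 14 higher and 1 lower with sgRNA.71, and 7 higher and 5 lower with sgRNA-FOXF1, with median log2 ratios of 0.15, 0.38 and 0.21. Over all compared genes, 8.17% were higher and 9.92% lower with sgRNA.69, 14.0% and 14.7% with sgRNA.71, and 11.6% and 13.2% with sgRNA-FOXF1, with medians of 0.07, 0.08 and 0.05. The sgRNA.69 counts thus lay near these shares, and since the list was chosen with earlier results known, nothing particular to it is read from the counts of its groups below. The other ligands, IL18 and the IL-36 group among them, had no value and were not analysed here. Of 8 other receptors, SIGIRR, an inhibitory receptor of the family, read 1.1, 1.5, 1.8 and 2.3 RPKM in the order sgRNA-NT, sgRNA.69, sgRNA.71 and sgRNA-FOXF1. The IL-18 inhibitor IL18BP was at the lowest value throughout, and neither passed the filter.

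Of 15 compared signalling genes, 1 was past 1.5-fold with sgRNA.69 and 2 were with each of the other guides. None of these counts stood above the shares just given for all genes. NFKBIA, the NF-kB inhibitor that NF-kB itself induces, had 19.9 RPKM with sgRNA-NT, 25.6 and 49.6 with sgRNA.69 and sgRNA.71, and 30.9 with sgRNA-FOXF1. IRAK2, a kinase that acts beside IRAK1, followed the IL1B order with 11.4, 9.2, 24.0 and 9.1 RPKM. SMAD3, a transducer of TGF-beta signalling that also binds IL-37, was lower in the targeted libraries, with 11.4 RPKM against 6.8, 7.7 and 5.4, or -0.75, -0.57 and -1.08 on the log2 scale. IKBKG, the regulatory subunit of the kinase complex that frees NF-kB, read 4.4, 5.8, 5.6 and 5.5 RPKM.

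Of 10 compared genes of precursor processing and inflammasomes, 3 were higher with sgRNA.69, 5 with sgRNA.71 and 3 with sgRNA-FOXF1, with 1 lower (CAPN2) in the last, beside 8.17%, 14.0% and 11.6% of all genes higher and 13.2% lower with sgRNA-FOXF1. PYCARD, the adaptor that joins caspase-1 to inflammasome sensors, had 8.8 RPKM in the control and 15.3, 16.2 and 20.5 in the targeted libraries. GSDMD, the pore-forming protein cut by inflammatory caspases, had 4.5 RPKM against 8.0, 8.9 and 9.8. Both were past 1.5-fold in all 3 libraries, unlike CASP1. Their transcripts are shorter, at 757 nt for PYCARD and 1723 nt for GSDMD against 1996 nt for CASP1, and these ratios keep the length trend. The inflammasome sensor NLRP3 read 3.8, 5.7, 7.0 and 5.6 RPKM. None of these 10 genes differed by 1.5-fold between the enhancer guides.

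Of 10 compared target genes of IL-1 signalling, 1 was higher and 2 were lower with sgRNA.69, 7 higher and 1 lower with sgRNA.71, and 3 higher and 3 lower with sgRNA-FOXF1, beside the shares of 8.17% and 9.92%, 14.0% and 14.7%, and 11.6% and 13.2% of all genes. The median log2 ratios were -0.28, 1.45 and 0.21, and between the enhancer guides 8 of the 10 were higher with sgRNA.71, beside 2.41% of all genes, with a median of 1.51. CXCL8 had 32.0 RPKM in the control and 67.3 with sgRNA-FOXF1, and CXCL1 had 16.5 and 39.6. CCL2, a monocyte-attracting chemokine, was higher in every targeted library, with 5.0 RPKM in the control and 10.2, 25.7 and 13.4. MMP3, a matrix metalloproteinase, was lower in every targeted library, with 146.6 RPKM against 59.5, 50 and 34.2.

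The genes whose 3 log2 ratios to sgRNA-NT lay nearest to those of IL37 were sought by Euclidean distance over the 3 targeted libraries, among the 5095 genes that averaged 5 RPKM or more. In order they were CCL2 (0.66), the sphingosine-1-phosphate receptor gene S1PR3 (0.70), the slow skeletal troponin gene TNNT1 (0.75), the calcium-binding protein gene S100A3 (0.83) and the ribosomal protein pseudogene RPL37P2 (0.86), whose reads may be shared with its parent gene. The 3 ratios share the control library, so each nearness rests in part on sgRNA-NT alone. They also keep the length trend, and the CCL2 transcript is short as well, at 741 nt.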

How the data were processed

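RNA was sequenced from 4 libraries, 1 per condition. The sources name Trizol or TRIsure and stranded or unstranded TruSeq kits. The authors aligned single reads of 65 nt to hg19 with TopHat2, counted them per gene with HTSeq (versions not given in the sources used here), converted counts to RPKM with GENCODE v25 and quantile-normalized the libraries. The deposited RPKM values have a floor of 1 and 1 decimal, so depth is unknown. The deposited log2 ratio columns of the authors were not used, and 0 per-sample columns were unmapped.

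Log2 ratios of RPKM were computed without a pseudocount for the 7589 genes that averaged 2 RPKM or more, and a gene was counted at 1.5-fold. No test was made, since each condition has 1 library. Members and gene lists were chosen with earlier results of these data known. Named genes are the members, FOXF1, the IL-1 and CASP1 clusters, up to 4 compared genes of each pathway group with the largest mean absolute ratio (1 of these is not reported here), and the 5 genes nearest to IL37. CSF2, PTGS2, MMP1, C3, SIGIRR, IL18BP, the targets below the filter, the fibroblast markers given singly and the genes listed by name only were chosen after their values were seen. Transcript lengths (11978 genes, 99.6% of those compared) and start sites come from GENCODE v44 lifted to GRCh37, and sequences from GRCh37. The position of the element came from the study's supplementary list. Alternatives were a pseudocount of 1, no filter or a mean of at least 5 RPKM, 2-fold, centring, a spline on length with 5 knots and each enhancer guide alone. The length correction was tested on simulated data with a set length trend and less noise than the spread between the enhancer guides. Python 3.11.15, numpy 2.4.6, pandas 2.3.3, scipy 1.17.1 and matplotlib 3.10.9 were used.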

Additional observations from a re-analysis of the deposited data

Results flagged for a closer look

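IL1B lay on opposite sides of the control under different guides: its log2 ratio to sgRNA-NT was 1.45 with sgRNA.71 and -0.64 with sgRNA-FOXF1, from 1 library each. SOD2, a mitochondrial superoxide dismutase gene induced by NF-kB, did the same at 1.24 and -0.77. Neither difference was tested, since no condition has a replicate.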

How the results depend on the processing

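No paired analysis was possible because each condition has 1 library. Depth is unknown, so counting error cannot be given, and ratios of IL37, IL1R1 and CASP1 rest on levels of a few RPKM. Of 152 counts under the alternatives, 134 stayed within 1.5 times. These include counts of 0 that stayed 0, which neither 2-fold nor the 5 RPKM mean could change. Member ratios were held against the SD between the enhancer guides over all compared genes (0.206 on the log2 scale), not each member's own. Of 120 member ratios, 98 moved by less than this SD, 21 moved by more and 1 reversed. The reversed one was the IL1B ratio for the enhancer, at -0.0165 with sgRNA.69 alone. At 2-fold, members higher numbered 1 with sgRNA-FOXF1, 1 for the enhancer mean and 1 between the enhancer guides, and members lower 0 with sgRNA-FOXF1 and 1 for sgRNA-FOXF1 against the enhancer mean (also 1 with a pseudocount of 1). With a mean of at least 5 RPKM, 2 members were higher with sgRNA.71 and 1 between the guides. With sgRNA.69 alone, 1 member and 4 pathway genes were higher for the enhancer. At 2-fold, pathway genes higher numbered 1 with sgRNA.69, 9 with sgRNA.71 and 3 for the enhancer mean, and those lower 2 with sgRNA-FOXF1, 1 for the enhancer mean and 1 for sgRNA-FOXF1 against it. Centring gave 2 lower with sgRNA.71, and sgRNA.71 alone gave 1 lower for the enhancer. The 2-fold and 5 RPKM counts are smaller by construction; otherwise the cause was not tested.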
